A study of Mus musculus with 20 samples.

Results

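Efferocytosis, the uptake of dying cells by phagocytes, and scavenger uptake of modified lipoproteins and debris were examined through 10 genes: the TAM receptors Tyro3, Axl and Mertk, their ligands Gas6 and Pros1, the bridging protein Mfge8, the phosphatidylserine receptors Stab1 and Timd4, and the class A scavenger receptors Msr1 and Marco. The genes were chosen by name and function, with earlier results of these data already known. Each was found by its Entrez number among the 36528 gene models counted. All 10 were measured in all 20 libraries and passed the filter on low counts that left 15390 genes for testing. The libraries were made from macrophages and monocytes sorted from MC38 tumours, which grow from a mouse colon carcinoma line. Tumours were from control mice or from mice that received anti-PD-L1, an antibody against the ligand of PD-1, an inhibitory receptor of T cells. RNA was taken 7 days after treatment began. The 4 groups of 5 libraries were control macrophages, treated macrophages, control monocytes and treated monocytes. The sources used here give neither the treatment of the control mice, nor strain, age or sort markers. All control libraries carry lower sample numbers than all treated libraries, so treatment and the order of these numbers cannot be told apart. Whether each library is from its own mouse is not stated in the labels, and p-values then measure no more than the spread among these samples, possibly a technical one.

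Dying cells expose phosphatidylserine on their outer membrane. Gas6 and protein S, the product of Pros1, bind this lipid and bridge it to the TAM receptor tyrosine kinases, of which Mertk responds to both ligands and Axl to Gas6. Mfge8 bridges phosphatidylserine to alpha v integrins, whereas Stab1 and Timd4 bind the lipid themselves. In tumours, uptake through Mertk and Axl is known for dampening inflammatory signalling in macrophages, and Msr1 and Marco take up polyanionic ligands such as modified lipoproteins and bacterial surface molecules.

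The clearest differences among the 10 genes lay between the cell types and not between treatments. Calls between cell types were also the more common over all genes tested. In macrophages of control tumours 24% were called higher and 20% lower, and 14.3% and 10.8% had no overlap. Treatment called 1.73% of all genes higher and 2.92% lower in macrophages, and 9.92% and 15.4% in monocytes. Gas6 was 15.0 times as high in macrophages as in monocytes of control tumours, and Mertk, Axl and Stab1 were also higher, by 2.79, 1.52 and 1.80 times, with no overlap between the 5 libraries of each cell type. Pros1 was lower in macrophages, at 0.797 times its level in monocytes, a call that several other settings did not give. After anti-PD-L1, Mfge8 was lower in both cell types, at 0.412 times its control level in macrophages and 0.452 times in monocytes. Tyro3 was lower in treated monocytes. Msr1 was higher in treated monocytes by 1.36 times, a call lost in 17 of 20 fits that each left out 1 library. Treated libraries also held less fibroblast marker RNA. With that level as a covariate edgeR called none of these 3 genes, but that fit called only 1 higher and 1 lower of all genes in macrophages and 2 and 1 in monocytes, so the part of the markers in these calls was not tested.

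The upstream sequences are shown for the genes with the largest difference between the cell types among the TAM receptors and among their ligands (Mertk and Gas6), for the ligand that ran the other way (Pros1) and for the gene that fell in both cell types (Mfge8). Each is the 250 bases before the RefSeq gene start on the gene's own strand, 5′ to 3′, on GRCm38.p6. For Mertk and Gas6 the first bases after this start matched no GENCODE transcript of the gene, unlike for Pros1 and Mfge8. The windows are chr2:128698665-128698914 on the plus strand for Mertk, chr8:13494536-13494785 on the minus strand for Gas6, chr16:62854057-62854306 on the plus strand for Pros1 and chr7:79149061-79149310 on the minus strand for Mfge8. Capitals mark matches on either strand to 5 motifs: the GC box GGGCGG, which reads CCGCCC where it lies on the other strand, the PU.1-type ETS core AGGAAG, the MAF factor core TGCTGA, the nuclear receptor core AGGTCA and the TATA box TATAAA.
Mertk: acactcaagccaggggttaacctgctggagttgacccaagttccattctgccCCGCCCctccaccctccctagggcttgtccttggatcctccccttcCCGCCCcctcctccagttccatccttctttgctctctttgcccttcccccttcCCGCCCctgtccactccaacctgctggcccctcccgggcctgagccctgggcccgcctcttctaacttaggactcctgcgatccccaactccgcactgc
Gas6: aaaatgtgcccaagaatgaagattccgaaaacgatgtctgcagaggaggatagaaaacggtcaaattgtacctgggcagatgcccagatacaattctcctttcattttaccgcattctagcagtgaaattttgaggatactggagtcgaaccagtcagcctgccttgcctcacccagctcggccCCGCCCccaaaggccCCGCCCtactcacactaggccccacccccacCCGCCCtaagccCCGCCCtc
Pros1: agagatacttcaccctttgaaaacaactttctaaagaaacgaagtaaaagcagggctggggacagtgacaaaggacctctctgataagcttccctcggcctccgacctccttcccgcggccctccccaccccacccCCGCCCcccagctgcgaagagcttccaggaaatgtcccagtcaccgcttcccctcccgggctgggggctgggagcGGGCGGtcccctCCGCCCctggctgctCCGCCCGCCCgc
Mfge8: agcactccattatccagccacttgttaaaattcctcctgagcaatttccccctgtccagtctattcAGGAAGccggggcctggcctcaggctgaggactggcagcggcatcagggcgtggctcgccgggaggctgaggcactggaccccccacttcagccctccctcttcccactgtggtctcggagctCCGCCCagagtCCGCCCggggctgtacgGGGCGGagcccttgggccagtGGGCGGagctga
Nearly all of the capitals are GC boxes, with 3 in Mertk, 4 in Gas6, 5 in Pros1, of which the last 2 overlap, and 4 in Mfge8. Mfge8 also has 1 PU.1-type core, 184 bases before the start. Gas6, with the widest difference between the cell types, and Pros1, with a small one in the other direction, thus carry the same kind of match. RefSeq upstream sequence was matched for 9 of the 10 genes. The GC box was found in 6 of these 9, against 32.7% of 32851 upstream windows of the same length, the PU.1-type core in 4 (29.5% of all windows), the MAF core in 2 (16.1%), the nuclear receptor core in 1 (14%) and the TATA box in 0 (12.4%). A match describes these letters and is not evidence of a bound site.

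Total counts ran from 30191509 to 36514133 per library, and 1 read corresponds to 0.0331 CPM, the count scaled to the library total, at the lowest depth. CPM values below are scaled by TMM library sizes and are given as mean ± SD with n = 5. Fold changes are log2 values ± SE of the quasi-likelihood test in edgeR. Its p-values were adjusted by Benjamini-Hochberg over the 15390 genes, and a gene was called at an adjusted p of 0.05 or less. The sorted populations carried their labels' markers. All 10 monocyte markers examined were lower in macrophages, and of 10 macrophage markers 6 were higher and 1 lower in control tumours. The 19 fibroblast markers, among them collagens, were detected in every library and varied most. Their summed level ran from 139 to 2737 CPM in control macrophages, 87.6 to 471 CPM in treated macrophages, 431 to 4280 CPM in control monocytes and 87.2 to 679 CPM in treated monocytes. Under treatment 10 of the 19 fell in macrophages, with a median log2 change of -2.71 over the list, and 13 of the 19 fell in monocytes, with a median of -2.44. The 6 control libraries with the highest mean log2 level of these markers were macrophage control replicates 1, 3 and 5 and monocyte control replicates 1, 3 and 4. Fits without them kept 2 control libraries per cell type. Summed neutrophil markers reached 88.3 CPM in control macrophages, 125 CPM in treated macrophages, 418 CPM in control monocytes and 581 CPM in treated monocytes, all 7 tested being lower in macrophages than in monocytes of both treatments. In macrophages most of this sum was Csf3r, at means of 61.8 CPM in controls and 96.4 CPM after treatment. The other tested neutrophil markers had means of at most 1.60 CPM there. Endothelial markers summed to at most 113 CPM, epithelial markers to at most 110.5 CPM, dendritic cell markers to at most 109.9 CPM, T and NK cell markers to at most 91.8 CPM and B cell markers to at most 31.1 CPM in any library. Most of the epithelial sum in macrophages was Cdh1, at means of 44.8 and 76.2 CPM.

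Ordered by deposited nRPKM, a normalised read count per kilobase of gene that allows levels of different genes to be set side by side, Axl, Msr1 and Stab1 formed the top of the list. In control macrophages Axl stood at 187 ± 18.7 nRPKM, Msr1 at 128 ± 16.0 and Stab1 at 71.4 ± 16.1. Mertk followed at 16.5 ± 2.69, Gas6 at 12.7 ± 4.08, Mfge8 at 9.26 ± 3.89 and Pros1 at 8.50 ± 0.962. Tyro3 at 1.46 ± 1.07, Marco at 0.190 ± 0.166 and Timd4 at 0.139 ± 0.0900 nRPKM lay lowest. In control monocytes the order of the means at the top changed, with Msr1 at 152 ± 43.4 and Axl at 126 ± 8.16 nRPKM. Their ranges overlapped, at 112 to 214 for Msr1 and 114 to 137 for Axl. Gas6 dropped to 0.863 ± 0.349 nRPKM there, below Mfge8 at 12.1 ± 5.05, Pros1 at 11 ± 2.31, Mertk at 6.04 ± 3.63 and Tyro3 at 2.12 ± 1.41. Treated macrophages ran from Axl at 204 ± 13.7 nRPKM to Timd4 at 0.163 ± 0.0370, and treated monocytes from Msr1 at 206 ± 37.3 nRPKM to Marco at 0.0132 ± 0.0143. Axl made up most of the TAM receptor RNA on this per-length scale, between 88.2% and 97.2% of the summed nRPKM of the 3 receptors in every library.

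**Figure D1:**
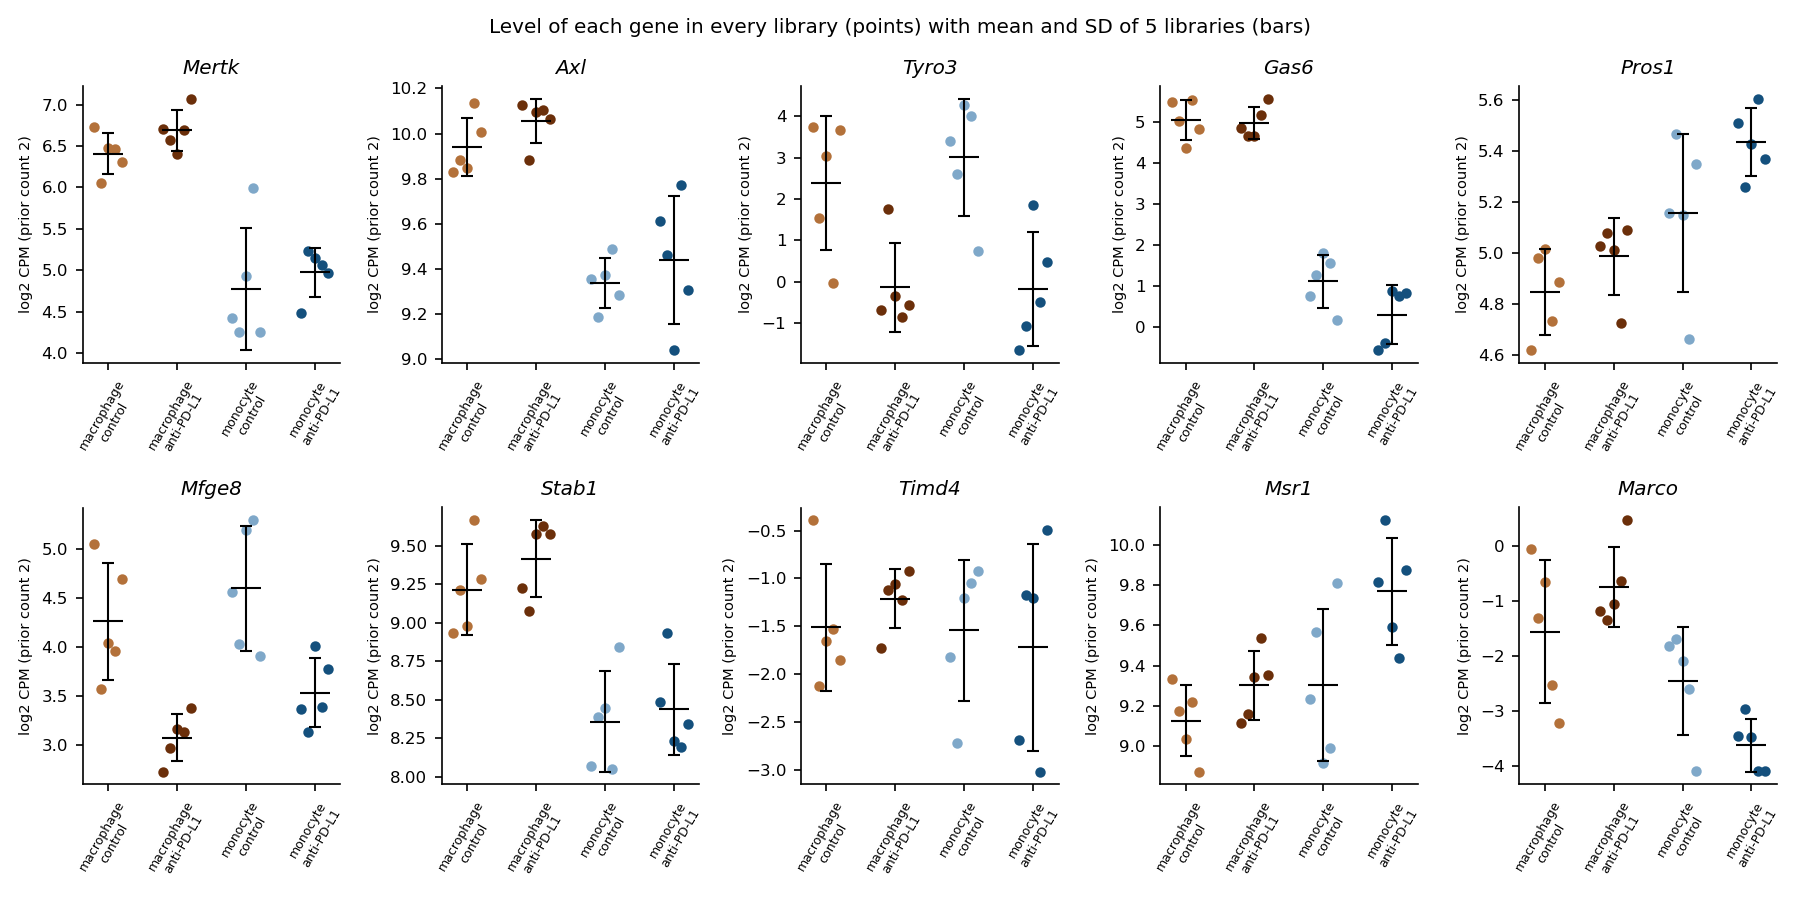
Level of each of the 10 genes as log2 CPM (prior count 2) in every library, with 5 points per group and the mean and SD as black bars; the vertical scale differs between genes. Mertk, Axl, Gas6 and Stab1 separate macrophages from monocytes in both treatments, Mfge8 is lower in all 5 treated macrophage libraries than in all 5 controls, and Tyro3 spreads widely among the control libraries.

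Mertk (Entrez 17289, chromosome 2, 128698915 to 128803162), the TAM receptor most tied to efferocytosis by macrophages, measured 106, 66.4, 88.8, 88.1 and 79.3 CPM in the control macrophage libraries and 104, 95.1, 84.4, 103 and 135 CPM in the treated ones. In monocytes Mertk measured 21.4, 19.1, 30.4, 63.6 and 19 CPM in the controls and 22.2, 37.5, 35.3, 33.3 and 31.2 CPM after treatment. Every macrophage library was above every monocyte library, and monocyte control replicate 4 stood apart from the other control monocytes without reaching the macrophages. The difference between cell types was 1.48 ± 0.27 in control tumours (adjusted p = 0.000175) and 1.71 ± 0.27 in treated tumours (adjusted p = 2.77e-05). Of all genes tested, 24% were called higher and 20% lower in macrophages of control tumours, and 28.2% and 25.7% in treated tumours, so a call in this comparison is common. The share of genes whose groups did not overlap was 14.3% higher and 10.8% lower in control tumours, and 25% and 22% in treated tumours. Treatment moved Mertk by 0.28 ± 0.26 in macrophages (adjusted p = 0.558) and by 0.05 ± 0.26 in monocytes (adjusted p = 0.900), with intervals of -0.26 to 0.83 and -0.50 to 0.61. All 5 treated monocyte libraries were above the control median, and without monocyte control replicate 4 the change in monocytes was 0.49, still not called (adjusted p = 0.0645).

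Axl (Entrez 26362, chromosome 7, 25756500 to 25788924), the receptor with the highest affinity for Gas6, had the least relative spread between libraries among the TAM receptors. Control macrophages measured 909.7, 945, 922, 1125 and 1028 CPM and treated macrophages 1119, 945, 1095, 1103 and 1072 CPM. Control monocytes measured 655, 583, 664, 719 and 624 CPM and treated monocytes 784, 706, 527, 875 and 634 CPM. The lowest macrophage library was above the highest monocyte library, and the treatments overlapped within each cell type. The difference between cell types was 0.60 ± 0.11 in control tumours (adjusted p = 0.000257) and 0.60 ± 0.11 in treated tumours (adjusted p = 0.000193). Treatment effects of 0.11 ± 0.11 in macrophages (adjusted p = 0.592) and 0.12 ± 0.11 in monocytes (adjusted p = 0.464) were not called, with 95% intervals that end at 0.35 and 0.36.

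Tyro3 (Entrez 22174, chromosome 2, 119797740 to 119818104), the TAM receptor best known from neurons and dendritic cells, was low and uneven. It measured 13.3, 2.85, 8.17, 0.922 and 12.6 CPM in control macrophages and 0.568, 3.32, 0.730, 0.492 and 0.615 CPM in treated macrophages. Control monocytes measured 10.5, 6.02, 19.3, 16.0 and 1.60 CPM and treated monocytes 0.259, 0.419, 3.53, 0.653 and 1.33 CPM. In each cell type 4 of 5 treated libraries lay below all controls and the treated library with the highest value overlapped them. Tyro3 fell by 3.10 ± 0.82 on the log2 scale in monocytes (adjusted p = 0.0125), where 15.4% of all genes were called lower and 9.92% higher. In macrophages the change of -2.74 ± 0.81 was not called (adjusted p = 0.0548), where 2.92% of genes were called lower and 1.73% higher. It was called, at adjusted p between 0.0216 and 0.0431, in 5 of 20 fits that each left out 1 library, namely macrophage control replicates 2 and 4, treated macrophage replicate 2, monocyte control replicate 5 and treated monocyte replicate 3. In bulk libraries, fewer cells of a type and less RNA per cell cannot be told apart. No difference between cell types was called, at -0.50 ± 0.74 in control tumours (adjusted p = 0.622) and -0.14 ± 0.81 in treated tumours (adjusted p = 0.902). In neighbouring pairs of libraries the macrophage library was the lower in 5 of 5 control pairs, by -1.06 to -0.27, and in 3 of 5 treated pairs.

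Tyro3 followed the fibroblast markers closely. Within groups its slope was 1.21 ± 0.10 log2 units per log2 unit of mean marker level (edgeR adjusted p = 1.85e-08). The libraries lowest in Tyro3 in each control group, macrophage control replicate 4 and monocyte control replicate 5, were also lowest in summed fibroblast markers, at 139 and 431 CPM. Those highest in Tyro3 had summed marker levels of 2206 CPM (macrophage control replicate 1) and 4280 CPM (monocyte control replicate 3). With the marker level as a covariate, the treatment change in monocytes was -0.44 (edgeR adjusted p = 0.629), and without the 6 control libraries with most fibroblast marker RNA it was -1.62 (adjusted p = 0.477). The covariate fit called only 2 higher and 1 lower gene of all 15390 in monocytes. Leaving out the 6 libraries left 2 control libraries per cell type, and that fit also called far fewer genes than the full one. Mfge8 had a positive slope of 0.28 ± 0.08 (adjusted p = 0.0133) and Stab1 a negative slope of -0.18 ± 0.04 (adjusted p = 0.00821). The other 7 genes had no called slope, against 10.7% of all genes with a positive and 5.68% with a negative called slope.

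**Figure D2:**
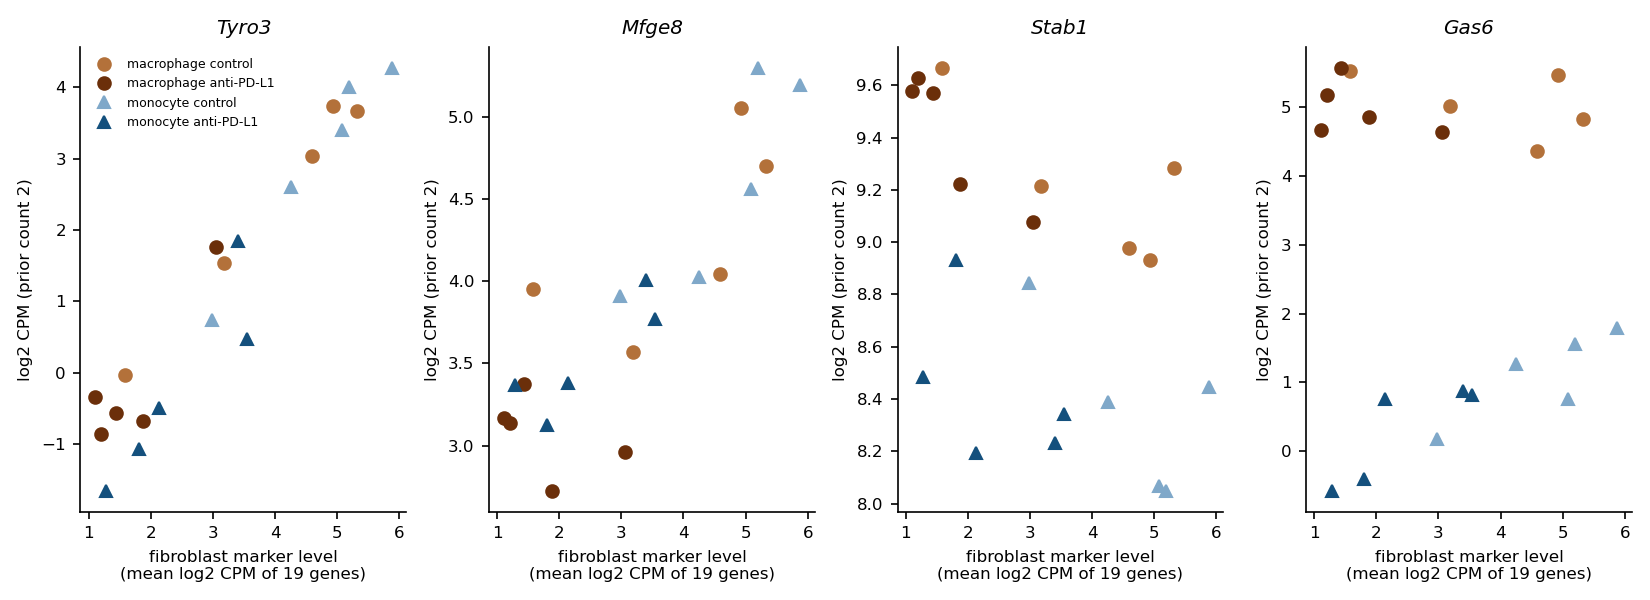
Level of Tyro3, Mfge8, Stab1 and Gas6 as log2 CPM (prior count 2, vertical axis) against the mean log2 CPM of 19 fibroblast markers (horizontal axis), 1 point per library, with circles for macrophages, triangles for monocytes and darker colours for treated libraries. Tyro3 is highest in the libraries with most marker RNA, with a within-group slope of 1.21, and in treated macrophages 1 library stands above the other 4, whereas Gas6 separates the cell types at every marker level.

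Gas6 (Entrez 14456, chromosome 8, 13465374 to 13494535), the ligand of all 3 TAM receptors, gave the widest separation of the 10 genes. Control macrophages measured 44.3, 32.3, 20.4, 45.9 and 28.4 CPM and treated macrophages 28.8, 24.9, 25.2, 35.9 and 47.3 CPM. Control monocytes measured 1.63, 2.35, 3.40, 2.90 and 1.07 CPM and treated monocytes 0.615, 0.698, 1.78, 1.63 and 1.71 CPM. The lowest macrophage library, at 20.4 CPM, was far above the highest monocyte library, at 3.40 CPM. Macrophages were higher by 3.90 ± 0.34 in control tumours (adjusted p = 3.88e-08) and by 4.65 ± 0.36 in treated tumours (adjusted p = 6.14e-09), 25.1 times in the latter. Treatment moved Gas6 by -0.08 ± 0.30 in macrophages (adjusted p = 0.906) and by -0.82 ± 0.35 in monocytes (adjusted p = 0.0851). All 5 treated monocyte libraries were below the control median and 2 were below every control. Without monocyte control replicate 5 this change was -1.02 and was called (edgeR adjusted p = 0.0242). The treatment effect in macrophages minus that in monocytes was 0.74 ± 0.46 for Gas6 (adjusted p = 0.857). Gas6 shares 28061 bases with Tmem255b, which lies on the opposite strand, and the strand setting of the counting is not given in the sources used here, so reads of these genes could be mixed. Tmem255b had 37 to 114 counts in macrophage libraries, against 742 to 1637 for Gas6, and 0 to 10 in monocyte libraries, against 19 to 136, so both genes had more reads in macrophages.

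Pros1 (Entrez 19128, chromosome 16, 62854307 to 62929346), which encodes protein S, the ligand of Mertk and Tyro3 and a cofactor in anticoagulation, varied little. Control macrophages measured 24.5, 31.5, 32.4, 26.6 and 29.6 CPM and treated macrophages 32.6, 33.7, 32.3, 26.4 and 34 CPM. Control monocytes measured 35.7, 44.2, 35.5, 25.2 and 40.7 CPM and treated monocytes 45.6, 38.3, 43.0, 48.7 and 41.3 CPM. In treated tumours every macrophage library was below every monocyte library, while in control tumours monocyte control replicate 4 lay among the macrophages. Pros1 was lower in macrophages by -0.33 ± 0.12 in control tumours (adjusted p = 0.0365) and by -0.45 ± 0.12 in treated tumours (adjusted p = 0.00435). In the 10 pairs of macrophage and monocyte libraries with neighbouring sample numbers, the macrophage library was the lower in all 10. The call in control tumours was lost with limma-voom (adjusted p = 0.0538), without the filter on low counts (0.0716), with only the groups compared (0.111) and without TMM (0.126). It was also lost in 6 of 20 fits that left out 1 library, at adjusted p between 0.0502 and 0.129, namely macrophage control replicates 1 and 4, monocyte control replicates 1, 2 and 5 and treated monocyte replicate 1. Treatment changes of 0.14 ± 0.12 in macrophages (adjusted p = 0.544) and 0.26 ± 0.12 in monocytes (adjusted p = 0.125) were not called. Without monocyte control replicate 2 the monocyte change was 0.34 and was called (adjusted p = 0.0463).

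The balance of the TAM ligands thus differed between the cell types. On the per-length nRPKM scale Gas6 made up 58.7% ± 10.5 of the sum of Gas6 and Pros1 in control macrophages and 55.5% ± 7.43 in treated macrophages. In monocytes its share was 7.67% ± 3.91 in controls and 3.58% ± 1.54 after treatment. The lowest share in any macrophage library was 44.3% and the highest in any monocyte library 12.6%. Macrophages therefore held both ligands at similar levels and monocytes mostly Pros1.

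**Figure D3:**
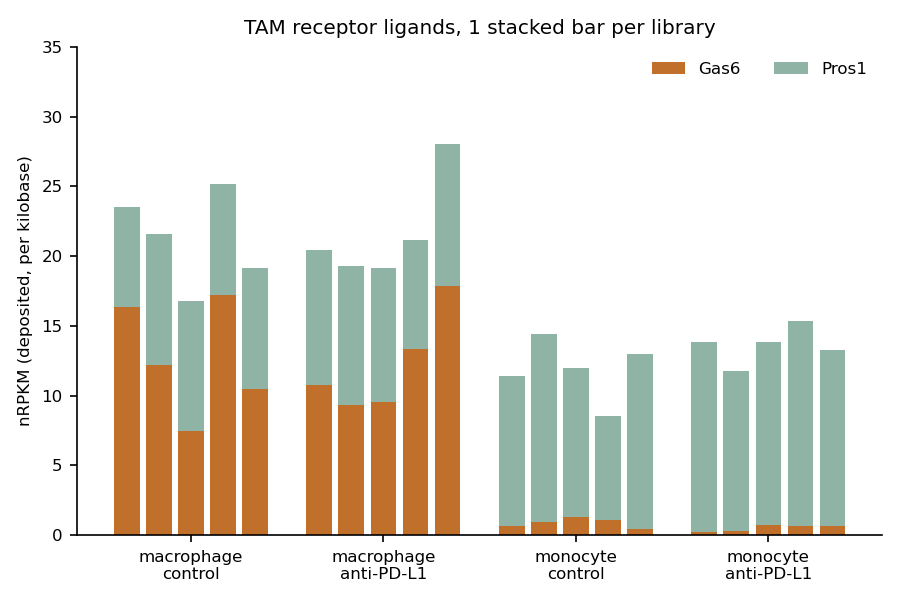
Deposited nRPKM of Gas6 (orange, lower part of each bar) and Pros1 (green, upper part) in each of the 20 libraries, as stacked bars from 0 with 5 bars per group. Gas6 makes up 44.3% or more of each macrophage bar and 12.6% or less of each monocyte bar. The Pros1 part differs less than the Gas6 part, with group means from 8.50 nRPKM in control macrophages to 13.1 nRPKM in treated monocytes.

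Mfge8 (Entrez 17304, chromosome 7, 79133768 to 79149060), the secreted bridge to alpha v beta integrins, was the member lower after treatment in both cell types by the test. Control macrophages measured 33.1, 11.8, 16.4, 15.4 and 25.9 CPM and treated macrophages 6.57, 7.75, 8.93, 8.73 and 10.3 CPM. Control monocytes measured 23.5, 16.2, 36.5, 39.2 and 15.0 CPM and treated monocytes 10.3, 8.68, 16.0, 10.4 and 13.6 CPM. All 5 treated macrophage libraries were below all controls, and 4 of 5 treated monocyte libraries were. Mfge8 fell by 1.28 ± 0.29 in macrophages (adjusted p = 0.0397) and by 1.15 ± 0.29 in monocytes (adjusted p = 0.0103) on the log2 scale. In macrophages 2.83% of all genes had treated libraries all below and 4.11% all above the controls, and in monocytes 2.13% and 5.09%. The macrophage call was lost in 6 of 20 fits without 1 library, at adjusted p between 0.0508 and 0.106, namely macrophage control replicates 1 and 5, treated macrophage replicates 1, 3 and 4 and monocyte control replicate 1. With limma-voom it was lost too (-1.20, adjusted p = 0.0709). The monocyte call held in all 20 fits without 1 library.

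Mfge8 and the fibroblast markers both fell under treatment. Within groups Mfge8 had a called positive slope on the marker level, 0.28 ± 0.08 (edgeR adjusted p = 0.0133), and the levels of single libraries matched only in part. The control libraries highest in Mfge8, macrophage control replicate 1 and monocyte control replicate 4, had summed marker levels of 2206 and 2757 CPM. Macrophage control replicate 4, with 139 CPM of markers, was above every treated macrophage library in Mfge8. Treated macrophage replicate 2 had the most marker RNA of its group, at 471 CPM, and lay below the group's median in Mfge8. With the marker level as covariate the change was -0.58 in macrophages (adjusted p = 0.781) and -0.47 in monocytes (adjusted p = 0.521). Leaving out the 6 control libraries with most fibroblast marker RNA left 2 control libraries per cell type. The change was then -0.69 in macrophages (edgeR adjusted p = 0.224) and -0.42 in monocytes (edgeR adjusted p = 0.468). Neither alternative called Mfge8, but both also called far fewer of all genes. The part of the markers in its fall was not tested. No difference between cell types was called for Mfge8, at -0.35 ± 0.28 in control tumours (adjusted p = 0.355) and -0.48 ± 0.29 in treated tumours (adjusted p = 0.175).

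Stab1 (Entrez 192187, chromosome 14, 31139017 to 31168651), stabilin-1, a large endocytic receptor of alternatively activated macrophages and endothelium, was abundant in both cell types and higher in macrophages. Control macrophages measured 488, 594, 505, 812 and 623 CPM and treated macrophages 598, 541, 764, 791 and 761 CPM. Control monocytes measured 268, 335, 348, 265 and 459 CPM and treated monocytes 358, 488, 301, 293 and 325 CPM. Within each treatment the macrophages lay above all monocytes, although treated monocyte replicate 2 equalled the lowest control macrophage library to 3 digits. The difference was 0.85 ± 0.18 in control tumours (adjusted p = 0.000713) and 0.97 ± 0.18 in treated tumours (adjusted p = 0.000145), and the macrophage library was the higher in 10 of 10 neighbouring pairs. Treatment changes of 0.19 ± 0.18 in macrophages (adjusted p = 0.556) and 0.07 ± 0.18 in monocytes (adjusted p = 0.791) were not called. Stab1 shares 108 bases with Nt5dc2 on the opposite strand, which had 1337 to 5200 counts against 8978 to 28184 for Stab1.

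Timd4 (Entrez 276891, chromosome 11, 46810786 to 46844333), which encodes the phosphatidylserine receptor TIM-4 of resident macrophages, was near the limit of detection. It had 6 to 26 counts in control macrophages, 9 to 16 in treated macrophages, 3 to 16 in control monocytes and 2 to 19 in treated monocytes. Mean levels were 0.328 ± 0.215, 0.381 ± 0.0849, 0.318 ± 0.155 and 0.314 ± 0.240 CPM in the same order. No comparison was called, and all 4 groups overlapped. The 95% interval of the treatment change ran from -0.86 to 1.28 in macrophages and from -1.12 to 1.08 in monocytes on the log2 scale.

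Msr1 (Entrez 20288, chromosome 8, 39543232 to 39642750), scavenger receptor A, was among the most abundant of the 10 genes in every group. Control macrophages measured 646, 578, 524, 595 and 469 CPM and treated macrophages 553, 572, 648, 744 and 655 CPM. Control monocytes measured 602, 758, 483, 509 and 898 CPM and treated monocytes 902, 1116, 771, 694 and 941 CPM. All 5 treated monocyte libraries were above the control median and 3 were above every control. Msr1 rose by 0.45 ± 0.16 in monocytes (adjusted p = 0.0488), and its change of 0.17 ± 0.16 in macrophages was not called (adjusted p = 0.557). The monocyte call held in 3 of 20 fits without 1 library, those without monocyte control replicate 2 or 5 or treated monocyte replicate 4, and gave adjusted p between 0.0572 and 0.158 in the other 17. With the fibroblast marker level as covariate the change was 0.18 (adjusted p = 0.731), and without the 6 control libraries with most fibroblast marker RNA it was 0.08 (adjusted p = 0.878). Both of these fits called far fewer of all genes than the full one, and the latter kept 2 control libraries per cell type. The slope of Msr1 on the marker level was -0.13 ± 0.05 (adjusted p = 0.0673). Between cell types Msr1 was lower in macrophages of treated tumours by -0.48 ± 0.16 (adjusted p = 0.0166), with 4 of 5 macrophage libraries below all monocytes. That call was lost without treated macrophage replicate 1 or 2 or treated monocyte replicate 2, at adjusted p between 0.0599 and 0.0722. In control tumours the difference of -0.21 ± 0.16 was not called (adjusted p = 0.319).

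Marco (Entrez 17167, chromosome 1, 120474538 to 120505024), the class A receptor of alveolar and marginal zone macrophages, had few reads. The libraries held 33, 12, 22, 4 and 2 counts in control macrophages, 14, 10, 15, 19 and 45 in treated macrophages, 8, 8, 7, 4 and 0 in control monocytes and 1, 2, 1, 0 and 0 in treated monocytes. In treated tumours all macrophage libraries were above all monocyte libraries, and in control tumours the cell types overlapped. Summed over libraries, the ratio of Marco per total count in treated macrophages to that in treated monocytes was 25.6, with an exact 95% interval of 9.71 to 95.8 that covers counting error only. The edgeR test called this difference (adjusted p = 0.000403). No monocyte library held more than 8 counts, and Marco passed the filter on low counts only through macrophage libraries. This call and the missing overlap are therefore not independent of the filter. The fitted log2 value of 4.34 ± 0.89 depends on how counts near 0 are treated. In control tumours the ratio was 2.67 with an interval of 1.69 to 4.31, and the difference was not called (adjusted p = 0.129). Treated monocytes held 4 counts in all against 27 in control monocytes, a change that was not called (adjusted p = 0.0811). It was called without monocyte control replicate 5 (adjusted p = 0.0299) and also without TMM.

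Counted over the 10 genes, treatment called 1 in macrophages (Mfge8) and 3 in monocytes (Tyro3, Mfge8 and Msr1), where edgeR called 1.73% of all genes higher and 2.92% lower in macrophages, and 9.92% and 15.4% in monocytes. The difference between the treatment effects of the cell types was called for none of the 10 by edgeR, nor by DESeq2, limma-voom or limma-voom with a block of neighbouring samples, and only Marco had an unadjusted p under 0.05 in edgeR. Among all genes edgeR called 0% higher and 0% lower in that test, with 980 at an unadjusted p under 0.05. DESeq2 called 6 genes higher and 1 lower. The effects seen in monocytes were therefore not shown to differ from those in macrophages. Between cell types 4 genes were called higher and 1 lower in macrophages of control tumours, and 5 higher and 2 lower in treated tumours, against 24% and 20% of all genes in control and 28.2% and 25.7% in treated tumours. The 5 include Marco, which passed the filter on low counts only through macrophage libraries. The median log2 change of the 10 genes was 0.16 for treatment in macrophages, 0.02 for treatment in monocytes, 0.32 between cell types of control tumours and 0.44 between those of treated tumours, against -0.01, 0.02, -0.00 and -0.01 over all genes tested.

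**Figure D4:**
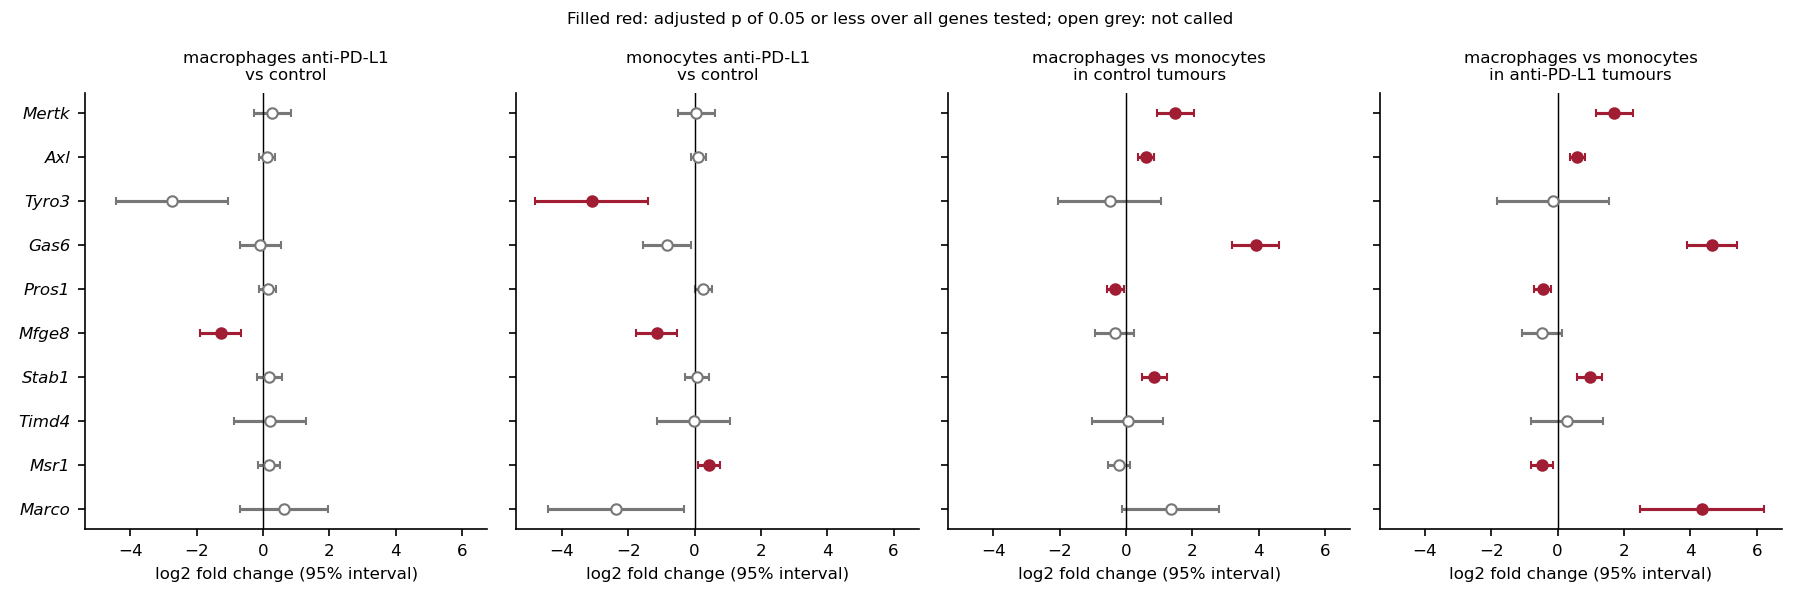
Log2 fold changes (horizontal axis, points) with 95% intervals (bars) of the 10 genes in the 4 comparisons; filled red points were called at an adjusted p of 0.05 or less and open grey points were not. Treatment calls are limited to Mfge8 in macrophages and to Tyro3, Mfge8 and Msr1 in monocytes, whereas 5 and 7 genes are called between the cell types. Over all genes treatment called 1.73% higher and 2.92% lower in macrophages, and 9.92% and 15.4% in monocytes. Between cell types 24% were called higher and 20% lower in control tumours, and 28.2% and 25.7% in treated tumours.

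Genes with the most similar profile over the 20 libraries were found by the root mean square difference of centred log2 CPM among all tested genes with an assigned symbol. Tyro3 was nearest to Fkbp10, a chaperone of collagen folding, and to Medag, each at 0.33 log2 units against a spread of 1.90 for Tyro3 itself. Mfge8 was nearest to Ddah2 at 0.25 and Scd2, a lipid desaturase, at 0.27. Mertk was nearest to Fcgrt, the neonatal Fc receptor, at 0.32 and to Smyd4 at 0.33. Gas6 was nearest to Scamp5 at 0.48 and to Hpgds, the haematopoietic prostaglandin D synthase, at 0.54, against its own spread of 2.23. Stab1 was nearest to Ncapg2 at 0.19 and to Dab2, an endocytic adaptor, at 0.20. Axl lay nearest to Ift140 and Cptp, each at 0.12, and Pros1 to Tinf2 and Parg, each at 0.12. Msr1 lay nearest to Slc3a2, the heavy chain of amino acid transporters, at 0.12 and to Uba1 at 0.14. These 3 genes had small spreads of their own, at 0.35, 0.28 and 0.33 log2 units. Timd4 and Marco had no close neighbour, with smallest differences of 0.52 (Aldoart2) and 0.75 log2 units (Slco2a1), then 0.54 (Prelid2) and 0.78 (Akr1e1).

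The wider pathway was followed through 6 lists holding 96 other genes, of which 88 were tested. Treatment called 5 of the 88 higher and 3 lower in macrophages, and 26 higher and 7 lower in monocytes. Over all genes the called shares were 1.73% higher and 2.92% lower in macrophages, and 9.92% and 15.4% in monocytes. With limma-voom 3 were called higher and 0 lower in macrophages, and 24 higher and 0 lower in monocytes, so all 7 lower calls in monocytes, Edil3, Ptk2 and Twist1 among them, were lost there. With the block of neighbouring samples, also in limma-voom, the counts were 4 and 0 in macrophages and 27 and 5 in monocytes. With the fibroblast marker level as covariate edgeR called 0 of the 88 in either cell type, and without the 6 control libraries with most fibroblast marker RNA 1 gene was called higher in macrophages and 3 in monocytes, with 0 lower. In macrophages of control tumours 22 were called higher and 30 lower than in monocytes, against 24% and 20% of all genes tested. Among the pathway genes, Cd68, Mrc1, C1qa, C1qb and C1qc also serve as macrophage markers here.

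Other engulfment receptors, of which 14 of 17 were tested, showed 0 calls in treated macrophages by edgeR, with 3 at an unadjusted p under 0.05, and 4 higher in treated monocytes. The list medians were 0.11 and 0.24, against -0.01 and 0.02 over all genes. Cd300a, an inhibitory receptor for phosphatidylserine and phosphatidylethanolamine, rose in monocytes from 118 ± 27.6 to 190.4 ± 41.1 CPM (0.69 ± 0.17, adjusted p = 0.0084). Itgb3, the beta subunit that pairs with alpha v to bind Mfge8, rose from 2.77 ± 0.924 to 7.11 ± 3.22 CPM (1.36 ± 0.37, adjusted p = 0.0134). Cd300ld, an activating member of the same receptor family, rose by 0.49 ± 0.16 (adjusted p = 0.0268). Between cell types 2 were higher and 7 lower in macrophages of control tumours. Trem2, a receptor for lipids and apoptotic cells, was higher in macrophages, at 282 ± 60.3 against 114 ± 17.7 CPM (1.30 ± 0.15, adjusted p = 1.35e-06). Jmjd6, a nuclear hydroxylase earlier proposed as a phosphatidylserine receptor, was lower (-0.78 ± 0.07, adjusted p = 7.4e-08), as was Cd300lf, another phosphatidylserine-binding receptor (-0.99 ± 0.14, adjusted p = 1.52e-05).

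Bridging and opsonin genes, 8 of 12 tested, had 1 lower gene in each treatment comparison, with list medians of 0.14 in macrophages and 0.13 in monocytes. Anxa1, a phosphatidylserine-binding annexin, fell in macrophages by 0.64 ± 0.18 on the log2 scale (adjusted p = 0.0487). Edil3, a secreted relative of Mfge8, fell in monocytes from 5.90 ± 4.41 to 1.57 ± 0.722 CPM (-1.91 ± 0.55, adjusted p = 0.0175). Both calls were lost with limma-voom, at adjusted p = 0.0816 and 0.106, and with limma-voom and a block of neighbouring samples, at 0.0533 and 0.0647. The C1q chains, opsonins that coat dying cells, were the highest of this list in macrophages of control tumours. C1qc stood 2.79 ± 0.17 above monocytes (adjusted p = 2.74e-10), C1qa 2.85 ± 0.18 (adjusted p = 7.47e-10) and C1qb 2.39 ± 0.18 (adjusted p = 5.15e-09), with 4 of the list higher and 2 lower.

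Other scavenger receptors, 15 of 16 tested, were called higher for 2 genes and lower for 1 in treated macrophages, and higher for 4 and lower for 2 in treated monocytes, while the list medians were -0.00 and -0.04. Scarf1, a receptor for C1q-coated cells and modified lipoproteins, rose in macrophages from 23.5 ± 8.01 to 38.8 ± 4.61 CPM (0.72 ± 0.18, adjusted p = 0.0401) and in monocytes from 22.5 ± 2.83 to 46.9 ± 8.68 CPM (1.06 ± 0.18, adjusted p = 0.00325). Without the 6 control libraries with most fibroblast marker RNA Scarf1 was still called in both, at adjusted p = 0.0149 and 0.0208. Scarb2, the lysosomal membrane protein LIMP-2, rose by 0.32 ± 0.09 (adjusted p = 0.0475) and 0.36 ± 0.09 (adjusted p = 0.00782), and Cxcl16, a membrane-bound chemokine that also takes up oxidised lipoprotein, rose in monocytes by 0.61 ± 0.13 (adjusted p = 0.0055). Scara3, a collagen-like member, fell in macrophages from 8.28 ± 6.68 to 0.860 ± 0.694 CPM (-3.27 ± 0.82, adjusted p = 0.0407). The macrophage calls on Scarb2 and Scara3 were lost with limma-voom, at adjusted p = 0.0764 and 0.190, and with the block in limma-voom, at 0.0528 and 0.124, each of which left 1 of 3 calls in the list. Between cell types of control tumours Olr1, the oxidised lipoprotein receptor LOX-1, was lower in macrophages (-4.44 ± 0.23, adjusted p = 6.6e-11). Mrc1, the mannose receptor, was higher by 3.44 ± 0.33 (adjusted p = 1.16e-07) and Scarf2 by 2.70 ± 0.28 (adjusted p = 2.75e-07), in a list with 5 higher and 3 lower.

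Engulfment machinery and cargo handling, with all 23 genes tested, had 1 gene lower in treated macrophages and 10 higher and 2 lower in treated monocytes, with list medians of 0.17 and 0.27. Abcg1 and Abca1, the exporters through which phagocytes release cholesterol, rose in monocytes from 96.0 ± 20.4 to 169.6 ± 18.0 CPM (0.82 ± 0.19, adjusted p = 0.00689) and from 150.2 ± 45.4 to 259.6 ± 85.8 CPM (0.79 ± 0.21, adjusted p = 0.0129). Ptk2, focal adhesion kinase, fell in macrophages by 2.14 ± 0.59 (adjusted p = 0.0475) and in monocytes by 2.22 ± 0.59 (adjusted p = 0.0129), and the macrophage call was lost with limma-voom (adjusted p = 0.176) and with the block in limma-voom (0.111), the monocyte call with limma-voom (0.0570) but not with the block (0.0290). The control levels of Ptk2 were 13.9 ± 9.39 and 18.3 ± 12.8 CPM, with a wide spread between libraries. Between cell types Dnase2a, a lysosomal nuclease that degrades engulfed DNA, and Abca1 were higher in macrophages of control tumours, by 0.82 ± 0.12 (adjusted p = 1.14e-05) and 1.49 ± 0.21 (adjusted p = 1.34e-05). Elmo2, which with Dock proteins activates Rac, was lower (-0.67 ± 0.09, adjusted p = 7.77e-06), in a list with 4 higher and 7 lower.

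Receptors for find-me signals and don't-eat-me genes, with all 12 tested, had 1 gene higher in treated macrophages and 2 in treated monocytes, with list medians of 0.28 and 0.13. Pirb, an inhibitory receptor for MHC class I with near-identical relatives whose reads may be shared, rose in macrophages (0.67 ± 0.16, adjusted p = 0.0397) and in monocytes (0.55 ± 0.16, adjusted p = 0.018). Cd47, the ligand that restrains phagocytosis through Sirpa, rose in monocytes from 338 ± 57.6 to 445 ± 10.4 CPM (0.40 ± 0.11, adjusted p = 0.014). In control tumours 4 were higher and 6 lower in macrophages, among them Siglece, an inhibitory lectin, at 1.5 ± 0.20 (adjusted p = 6.38e-06), Cd24a, a ligand of such lectins, at -4.55 ± 0.42 (adjusted p = 6.92e-08) and Gpr132, a lysophospholipid receptor, at -1.69 ± 0.21 (adjusted p = 3.33e-06).

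Regulators and feedback genes of uptake receptors, with all 16 tested, had 2 higher in treated macrophages and 6 higher and 2 lower in treated monocytes, with list medians of 0.16 and 0.30. Nr1h3, the liver X receptor alpha known to induce Mertk, rose in macrophages from 18.9 ± 3.67 to 34.2 ± 6.08 CPM (0.85 ± 0.19, adjusted p = 0.0391) and in monocytes from 22.8 ± 6.78 to 41.6 ± 4.88 CPM (0.87 ± 0.19, adjusted p = 0.00558). Mertk itself was not called in these comparisons. Socs1, a feedback inhibitor of cytokine signalling, rose in macrophages by 0.99 ± 0.27 (adjusted p = 0.0475) and Klf6 in monocytes by 0.60 ± 0.12 (adjusted p = 0.00386). Twist1, a transcription factor of mesenchymal cells that TAM signalling induces in macrophages, fell in monocytes from 5.70 ± 4.10 to 0.835 ± 0.689 CPM (-2.76 ± 0.73, adjusted p = 0.0125). Between cell types Klf4, Nr1h2 and Socs1 were lower in macrophages of control tumours, by -1.76 ± 0.21 (adjusted p = 1.76e-06), -0.59 ± 0.08 (adjusted p = 1.06e-05) and -1.68 ± 0.28 (adjusted p = 6.84e-05).

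**Figure D5:**
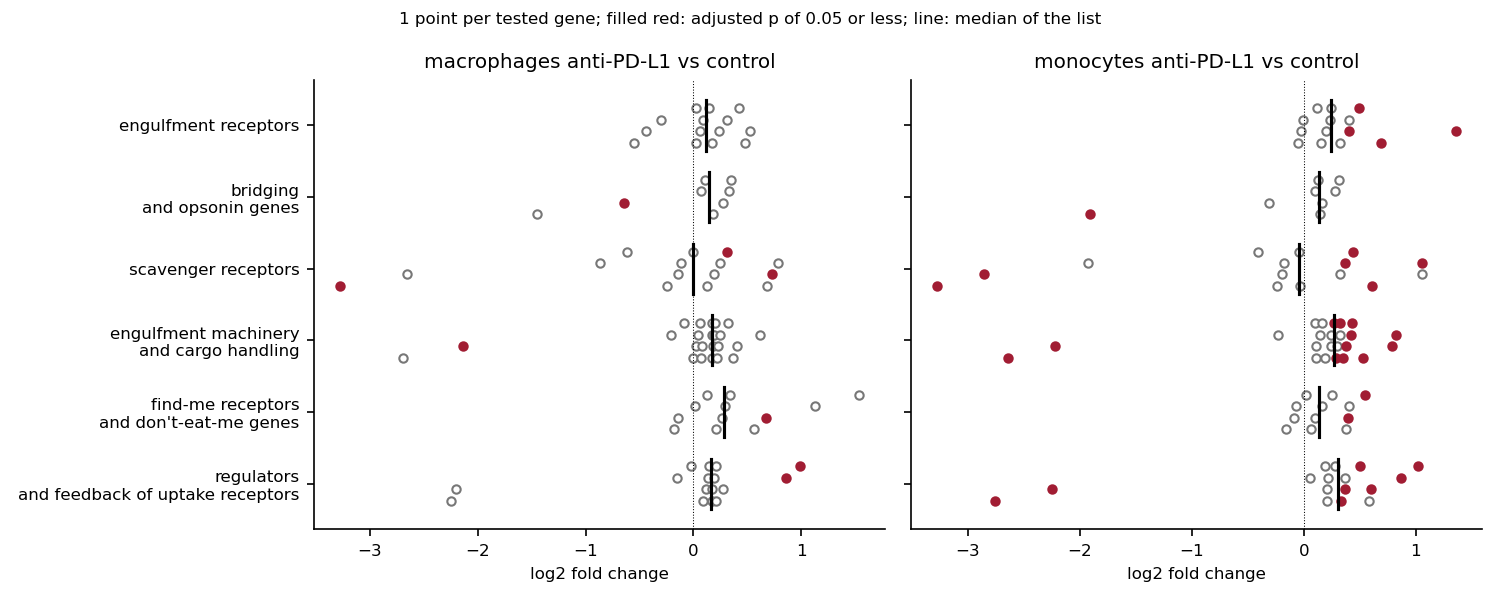
Log2 fold changes under anti-PD-L1 (horizontal axis) of the tested genes of 6 pathway lists (rows) in macrophages (left) and monocytes (right), 1 point per gene, filled red where called at an adjusted p of 0.05 or less, with the list median as a black line. In monocytes 26 points are called higher and 7 lower, against 5 and 3 in macrophages. Over all genes 9.92% were called higher and 15.4% lower in monocytes, and 1.73% and 2.92% in macrophages.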

How the data were processed

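RNA was sequenced from 20 samples in 4 labelled groups of 5. The labels' protocols name a stranded kit for total RNA and an input of 0.1 ug, whereas the molecule is labelled polyA RNA. GSNAP and the build GRCm38 are named in the submitters' processing notes. The sources used here give no aligner version, annotation, counting tool or strand setting. For each of 36528 gene models the authors deposited 2 values, per the file headers: how many reads aligned uniquely (a raw count) and the size-factor-adjusted RPKM (nRPKM). The deposited counts were used unchanged for all tests. The deposited nRPKM served only to compare levels between genes. Unique alignment drops or splits reads of near-identical genes.

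Models were named by Entrez number from RefSeq on GRCm38.p6, which matched 31049 models (85.0%) holding 97.97% of counts. Upstream sequences are RefSeq's. Libraries of a group were not copies, the lowest chi-square per degree of freedom being 20.4. Counts were fitted in R 4.3.3 with edgeR 4.0.16 (filterByExpr, TMM with factors from 0.838 to 1.18, quasi-likelihood test, 1 mean per group over 20 libraries), and Benjamini-Hochberg adjustment covered all 15390 genes tested. The SE is the log2 fold change divided by the root of the test statistic. A level of 3 counts equals 0.0994 CPM at the lowest depth and is given for reference, not as a filter. Such levels and intervals of counts cover counting error only.

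Alternatives were DESeq2 1.42.0, limma-voom (limma 3.58.1), no filter, no TMM, only the groups compared, the mean log2 CPM of 19 fibroblast markers as covariate, 6 control libraries left out, each library left out in turn, and a block in limma-voom. That block joins macrophage and monocyte libraries of neighbouring sample numbers. In 10 of 10 such pairs the deviations from group means correlated above 0.1 (0.218 to 0.722), so the pairing comes from the data and the label numbers, and the correlation within blocks was 0.53. The edgeR fit was also run on simulated counts with known changes added in treated macrophages. Each gene otherwise had the same mean in all groups, and its spread followed the trend over genes. Libraries were drawn independently, with no shared fibroblast RNA and no correlated neighbours, so the simulation cannot show how the fit behaves under these features.

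The 10 genes, the 6 pathway lists and the 9 marker lists were chosen with earlier results of these data known. Beside the 10 genes, the text names up to 3 called genes with the smallest p from each pathway list in each treatment comparison and between cell types of control tumours, and the genes of most similar profile. Replicate numbers follow the order of deposit and only name libraries.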

Additional observations from a re-analysis of the deposited data

Results flagged for a closer look

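Within 40 groups of 5 libraries (10 genes, 4 groups), 3 held a library whose gap to the nearest other exceeded 0.71 of the group's range, where chance gives about 1 in 20. All 3 lay in treated macrophages, on the log2 CPM scale. Axl was lowest in replicate 2, at 9.88 against 10.07 to 10.13 in the other 4 libraries. Tyro3 was highest in the same library, at 1.76 (99 counts) against -0.86 to -0.34 in the others, and that library also had the highest fibroblast marker level of its group, 471 CPM summed. Pros1 was lowest in replicate 4, at 4.73 against 5.01 to 5.09. The part of the fibroblast markers in the Axl and Tyro3 values of this library was not tested.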

How the results depend on the processing

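Of the fold changes of the 10 genes under every alternative, 1248 kept their direction and side of the threshold. Another 74 were called neither as reported nor under the alternative but lay on the other side of 0. A call was lost in 49 and gained in 16. In 1 more, a value not called as reported was called on the other side of 0. This was Tyro3 in macrophages against monocytes of treated tumours, at -0.14 as reported (edgeR adjusted p = 0.902). With the fibroblast covariate it was 0.80 (edgeR adjusted p = 0.0292). Genes called among the 10 in treated macrophages, 1 as reported, numbered 2 with DESeq2, without TMM and with only the groups compared, and 0 with limma-voom, with the fibroblast covariate and without the 6 control libraries with most fibroblast marker RNA. In treated monocytes, 3 as reported, they numbered 0 with the covariate and 0 without those 6 libraries. Leaving out each library in turn gave 0 to 2 in macrophages and 2 to 5 in monocytes, the 5 without monocyte control replicate 5. The macrophage count was 0 without macrophage control replicate 1 or 5, treated macrophage replicate 1, 3 or 4 or monocyte control replicate 1, and 2 without macrophage control replicate 2 or 4, treated macrophage replicate 2, monocyte control replicate 5 or treated monocyte replicate 3. The other comparisons moved by less than 1.5 times, from 4 to 5 and 6 to 7 when a library was left out, and the difference of treatment effects stayed at 0 of 10 under edgeR, DESeq2 and limma-voom alike.

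The replicate block of neighbouring samples gave 1, 3, 0, 5 and 7 called genes in the 5 comparisons, against 0, 2, 0, 4 and 7 in limma-voom with no block and 1, 3, 0, 5 and 7 in edgeR. It gave the same calls on the 10 genes as edgeR, while against limma-voom with no block it added Mfge8 in macrophages, Msr1 in monocytes and Pros1 in control tumours. Without TMM the median of all genes shifted to -0.15 in macrophages and -0.20 in monocytes and to 0.14 between cell types of treated tumours, and Msr1 in monocytes was 0.25 and not called, while Gas6 (-1.05) and Marco (-2.60) were called lower. Msr1 in monocytes was also not called with limma-voom, without the filter or with only the groups compared, nor was Pros1 between cell types of control tumours under these alternatives or without TMM. Without the 6 libraries Msr1 was called lower in macrophages of control tumours (-0.51) and Mfge8 lower in those of treated tumours (-0.47).

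Over all genes, treated macrophages had 266 called higher and 449 lower as reported, 747 and 1131 with DESeq2, 148 and 43 with limma-voom, 399 and 794 with only the groups compared, 130 and 791 without TMM, 1 and 1 with the covariate and 64 and 6 without the 6 libraries. Treated monocytes had 1526 and 2374 as reported, 1696 and 2640 with DESeq2, 1408 and 1377 with limma-voom, 678 and 1341 with only the groups compared, 455 and 4268 without TMM, 2 and 1 with the covariate and 67 and 16 without the 6 libraries. The causes were not tested. Timd4 and Marco had the fewest reads of the 10 genes, with at most 26 and 45 counts in a library.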
